A study of Mus musculus with 14 samples.

Results

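The gp130 cytokines measured here were IL-6, IL-11, LIF and the p28 subunit of IL-27. They were taken by their Entrez Gene IDs (mouse Il6, Il11, Lif and Il27) and are 4 of the 111 analytes on a membrane antibody array that was incubated with mouse serum. The mice were 8-week-old C57BL/6JNarl males with a full-thickness wound punched in the back, and the study asked how negative pressure wound therapy changes the early proteins of healing. In the NP groups the dressed wound was held under negative pressure for 0.5, 2 or 16 h, and in the AP groups it was kept under a traditional wet dressing at atmospheric pressure for 0.5, 2 or 16 h. A control labelled 0 h, which the series assigns to AP, served both arms. Each of these 7 groups had 2 samples, 14 in all. Serum portions of 20 µL were combined to 100 µL for a membrane, so a sample is a pool and not a mouse. The methods describe array values as averages over independent experiments, but the series' design text leaves AP 0 h out of the repeat although 2 samples are listed for it, so those 2 may not be independent. No source ties the 2 samples of a group to separate animals. A p-value here therefore speaks only to how far these pools differ from each other, and that difference may be a technical one.

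Cytokines of this family share gp130, a receptor chain found on most cells, and differ in the second receptor chain that gives each its target cells. Ligand binding activates JAK kinases and then STAT3, which in hepatocytes turns on the acute phase proteins that enter the blood after injury. IL-6 is the classical signal for that response, IL-11 acts mostly on stromal, epithelial and blood-forming cells, LIF signals through the LIF receptor joined to gp130, and IL-27 is a heterodimer of p28 and EBI3 that tunes T cell responses. In wounded skin IL-6 is made by keratinocytes, macrophages, fibroblasts and endothelial cells, and mice without it close wounds slowly.

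Spot brightness was read in 2 ways. The normalized intensity is the raw value times a factor that the authors computed between the 2 samples of a group, so it matches replicates to each other but not one group to another. The mean brightness of the 3 reference spot positions, which do not depend on the serum, ranged over the 12 later membranes from 17963 to 44156 and was 163044 and 168078 on the AP 0 h membranes. The second reading was therefore the raw value as a percentage of the mean reference spot of its own membrane. A value was taken as detected when it exceeded the negative control spot of the same membrane. That control read 203 and 296 on the AP 16 h membranes and 21 to 93 on the others, and 61 of the 111 analytes were above it in all 14 samples. Fetuin A, RBP4, adiponectin and serum amyloid P, abundant proteins of blood, were at least 19.4 times the control in every sample.

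The 4 cytokines were dim. IL-6 was above the negative control in 12 of 14 samples, but its median sample was only 1.78 times the control. IL-11 was above it in 12 of 14 samples with a median of 3.87 times, LIF in 12 of 14 with 8.29 times, and IL-27 p28 in 13 of 14 with 3.24 times. Neither AP 16 h sample had detectable IL-6 or LIF, and the controls of those membranes, 203 and 296, were the brightest. In the same order raw IL-6 was 65 and 172 and raw LIF was 153 and 151. Whether the control set these values was not tested. For comparison, 32 of the 111 analytes were above the control in neither AP 16 h sample.

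IL-6, the inducer of the acute phase response, had a normalized intensity of 138 and 93 in NP serum at 0.5 h, against 79.4 and 76 in AP serum. At 2 h it was 122 and 219 under NP and 76.3 and 41 under AP. At 16 h it was 181 and 156 under NP, against undetected readings of 64.4 and 172 under AP. Both NP samples thus exceeded both AP samples at 0.5 and 2 h, while at 16 h the groups overlapped. The AP 0 h samples read 345 and 349, brighter than every later sample. As a percentage of the reference spots, the place of AP 0 h turned round, and IL-6 averaged 0.937% in NP serum at 16 h and 0.726% at 2 h, against 0.213% at AP 0 h.

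IL-11, a cytokine of stromal cells, was brightest at 0.5 h, with 634 and 570 in NP serum against 419 and 400 in AP serum. By 2 h it read 161 and 64 under NP and 317 and 187 under AP. At 16 h it read 77 and 143 under NP, the lower value below the control, and 211 and 192 under AP, where only the higher one exceeded its control. The NP samples lay above the AP samples at 0.5 h and below them at 2 and 16 h, with no overlap. The separation at 16 h includes undetected readings of both groups and is not measured. AP 0 h serum had 219 and 412.

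LIF, which is best known for keeping mouse embryonic stem cells undifferentiated, read 1021 and 739 in NP serum at 0.5 h, against 599.6 and 485 in AP serum. At 2 h the values were 369 and 184 under NP and 389 and 359 under AP. At 16 h they were 245 and 289 under NP, against undetected readings of 152 and 151 under AP. NP was above AP without overlap at 0.5 and 16 h, and the higher NP sample fell between the AP samples at 2 h. The AP readings at 16 h were undetected, so that separation is not measured. AP 0 h serum had 833 and 550.0.

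IL-27 p28 had 340.5 and 413 in NP serum at 0.5 h, against 216 and 180 in AP serum. At 2 h both NP samples were the dimmest of all 14, at 61.0 and 63, against 221 and 206 under AP. Of these NP samples 1 lay just under its negative control, at 0.986 times the control's raw value. At 16 h p28 read 192 and 235 under NP and 269 and 500 under AP, again without overlap. How many of the 111 analytes separate in this way was not counted, so the separations given for the 4 cytokines are descriptive. AP 0 h serum had 231 and 348.

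**Figure D1:**
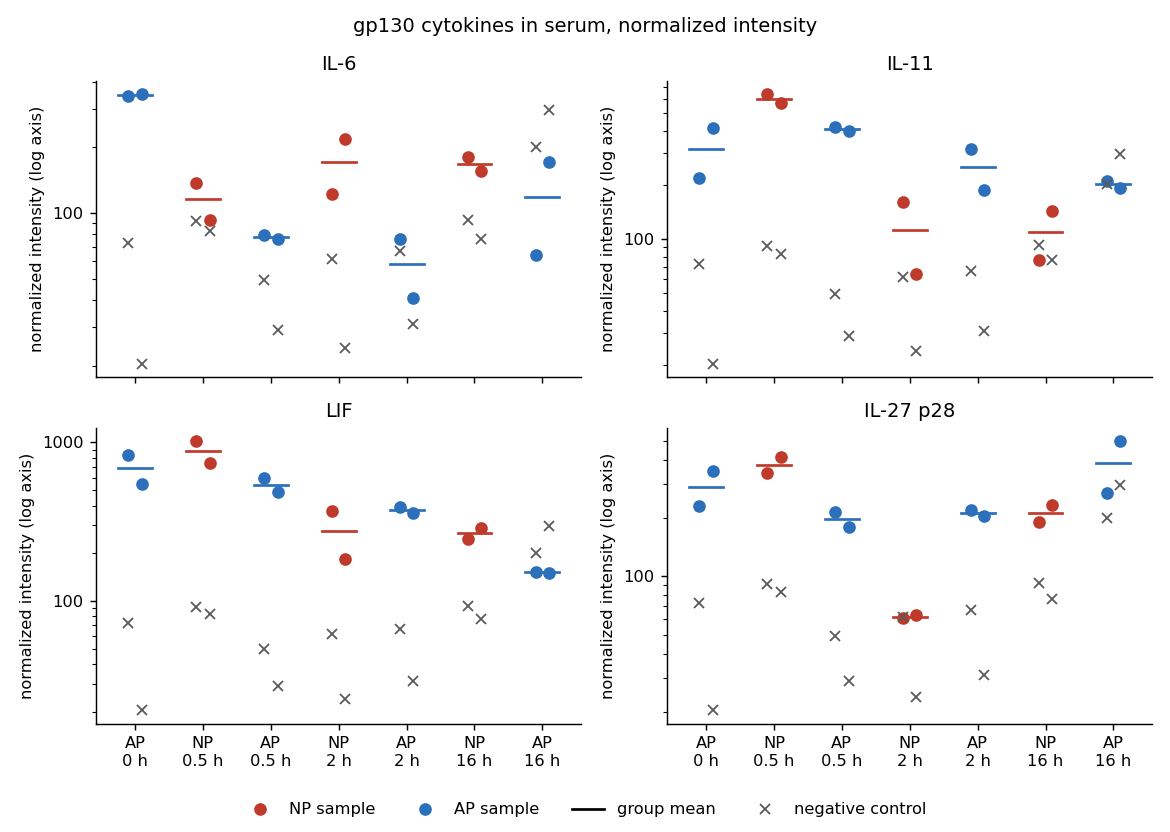
Normalized intensity (log axis) of the 4 gp130 cytokines in each sample, by group. Points are samples (NP red, AP blue), bars are group means, and crosses are the negative control of the same membrane on the same scale. IL-6 in NP serum at 2 h (122 and 219) lies above AP serum (76.3 and 41), whereas IL-27 p28 in NP serum (61.0 and 63) lies below AP serum (221 and 206).

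At 0.5 h all 4 cytokines were brighter under NP than under AP on the normalized intensity, with negative differences for all 4 under median and plane scaling and for IL-6 also under quantile normalization and control subtraction, and only IL-27 p28 passed the test. Its log2 difference, NP minus AP, was 0.93 ± 0.36 (SE), with a limma adjusted p of 0.0426. IL-6 differed by 0.54 (adjusted p = 0.339), IL-11 by 0.55 (adjusted p = 0.331) and LIF by 0.69 (adjusted p = 0.12). The single member that passed stands against 44.1% of the 111 analytes that were higher under NP, and the median over all analytes was 0.42. IL-27 p28 had the same direction but did not pass in each of the 4 fits without 1 sample of these groups, with differences of 0.79 to 1.07 and adjusted p from 0.0859 to 0.204. It was -0.07 when each sample was scaled to its median analyte and -0.26 under a plane fitted through the reference spots. On the reference-spot scale none of the 4 passed, before or after adjustment, where 12.6% of analytes were higher, with differences of 0.11 for IL-6, 0.12 for IL-11, 0.25 for LIF and 0.49 for IL-27 p28.

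The 2 h comparison split the family. IL-6 was higher under NP, by 1.55 ± 0.46 on the log2 scale (adjusted p = 0.00539). IL-27 p28 was lower, by a log2 difference of -1.78 ± 0.36 (adjusted p = 0.00026), and IL-11 was lower with -1.26 ± 0.46 (adjusted p = 0.0176). LIF differed by -0.52 and did not pass (adjusted p = 0.171). Lower readings under NP were the rule at this time, since 86.5% of the analytes were lower and the median difference was -1.23. Only 3.6% were higher, that is 4 analytes: IL-6, the chemokine CCL20, the stress cytokine GDF-15 and serum amyloid P, and the signed difference of IL-6 was the third highest of the 111.

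As a percentage of the reference spots, IL-6 at 2 h averaged 0.726% under NP and 0.173% under AP, a log2 difference of 2.07 (adjusted p = 0.000931). IL-27 p28 averaged 0.264% under NP and 0.631% under AP, a difference of -1.26 (adjusted p = 0.00555). IL-11 no longer passed at -0.74 (adjusted p = 0.163), and LIF differed by 0.01 (adjusted p = 0.983). On this reading 9.91% of analytes were higher and 63.1% lower under NP.

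The reading of IL-6 at 2 h rests on faint spots. Its raw values were 1.97 and 9.13 times the negative control under NP, against 1.14 and 1.32 times under AP. Leaving out the brighter NP sample gave 1.13 (adjusted p = 0.0655) and leaving out the dimmer AP sample gave 1.10 (adjusted p = 0.0683). After subtraction of the control the difference was 3.44 (adjusted p = 0.0012). With an offset of 1% of the reference mean added to every value, which was 235 units under NP and 339 under AP and so larger than the IL-6 values, it was 0.02 (adjusted p = 0.886). IL-6 was higher under NP in all 15 limma settings tried and passed in 12 of them, but it did not pass the methods' t-test, which passed IL-27 p28 alone of the 4 before and after adjustment. IL-27 p28 was lower in 15 of its 16 limma settings and passed in 14, among them every fit without 1 sample, where it ranged from -1.84 to -1.73. IL-11 did not pass without the brighter AP sample (-0.88, adjusted p = 0.152) or without the dimmer NP sample (-0.60, adjusted p = 0.243), and its direction turned under median scaling (0.61) and quantile normalization (0.26). The exception in direction for IL-27 p28 was scaling to the median of all analytes, with 0.09, and under quantile normalization it was -0.30 and did not pass. Its raw values under NP were 0.986 and 2.625 times the control, so the size of its difference rests partly on an undetected reading.

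**Figure D2:**
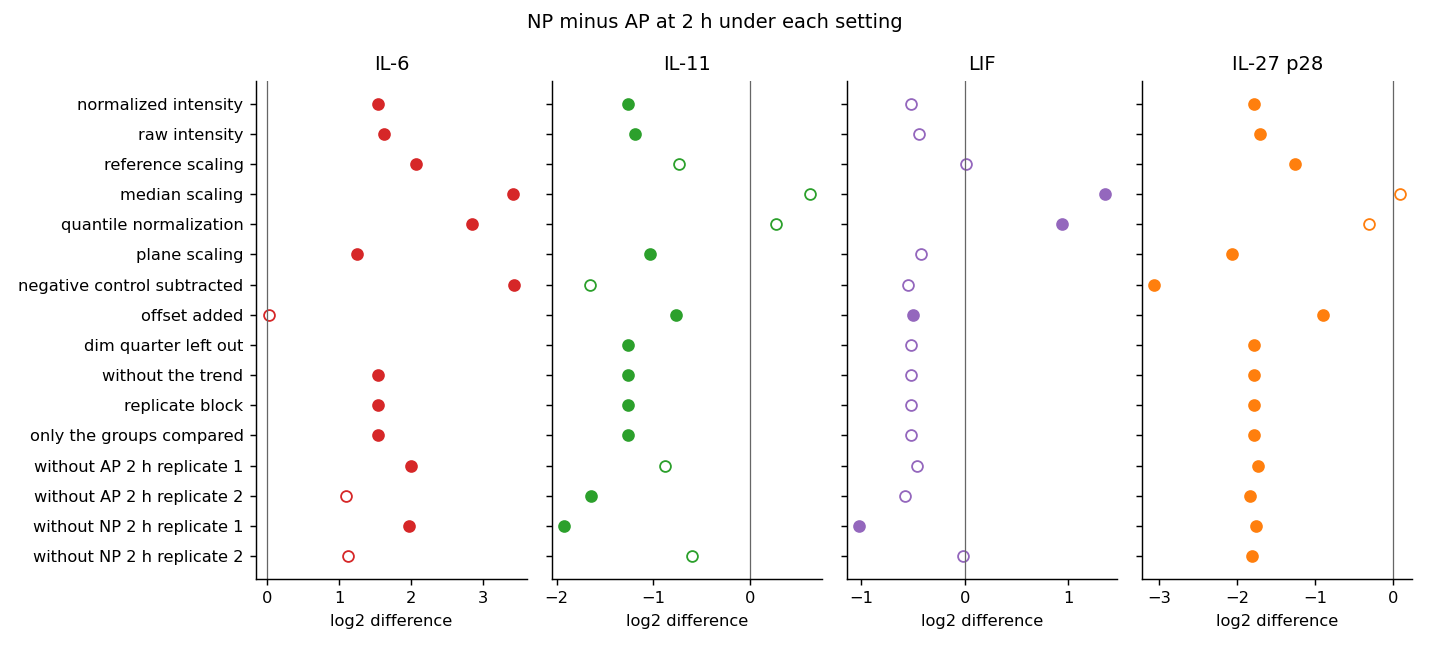
Log2 difference between NP and AP at 2 h for each cytokine under each limma setting, with filled points for an adjusted p under 0.05. IL-6 stays above 0 and ranges from 0.02 to 3.44, and IL-27 p28 lies below 0 in all of these settings except median scaling.

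By 16 h none of the 4 cytokines passed limma's test after adjustment. The unadjusted p was under 0.05 for 2 of them, LIF and IL-27 p28, and the methods' t-test passed 1 of the 4, LIF. LIF was brighter under NP by 0.82 (adjusted p = 0.0545), IL-6 by 0.67 (adjusted p = 0.211), IL-11 was dimmer with -0.94 (adjusted p = 0.0856) and IL-27 p28 dimmer with -0.79 (adjusted p = 0.066). At this time 8.11% of all analytes were higher and 52.3% lower under NP, with a median of -0.52. With the undetected AP readings replaced by the lowest detected analyte of their membranes, LIF was 1.08-fold higher under NP on average. The control of an AP 16 h membrane, 296, exceeded both NP readings of LIF, 245 and 289. This bound is thus an average over the membranes and not a minimum. For IL-6 the same bound lay under 1 and gives no fold. LIF relative to the reference spots averaged 1.49% under NP and 0.597% under AP and passed, with a difference of 1.31 (adjusted p = 0.00731), where 20.7% of analytes were higher. The AP mean and this difference use the undetected AP readings, so they are not a measured size.

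**Figure D3:**
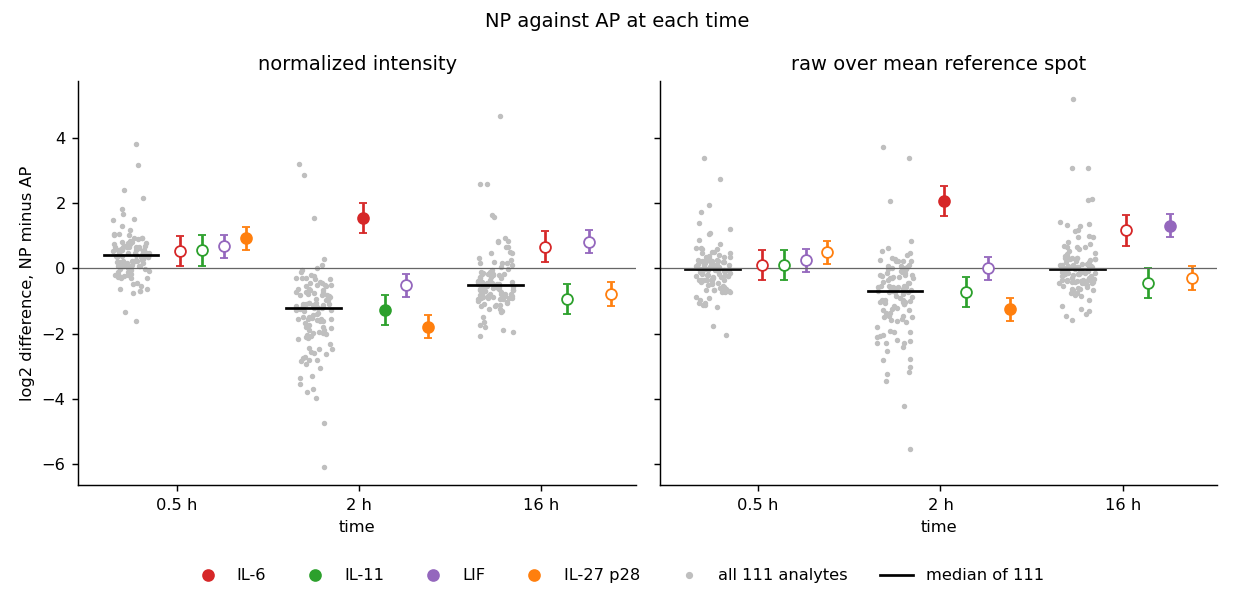
Log2 difference, NP minus AP, at the 3 times, on the normalized intensity (left) and relative to the reference spots (right). Coloured points are the 4 cytokines with their SE, filled where the adjusted p was under 0.05, grey points are all 111 analytes and black bars their median. At 2 h IL-6 stands at 1.55 on the left while the median of all analytes is -1.23.

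How far the arms parted between times was tested as a difference of differences. Between 0.5 and 2 h, IL-27 p28 moved down more under NP than under AP by -2.71 ± 0.51 (adjusted p = 0.000129), IL-11 by -1.82 ± 0.65 (adjusted p = 0.0166) and LIF by -1.21 ± 0.50 (adjusted p = 0.0325). For IL-6 the same quantity was 1.00 and did not pass (adjusted p = 0.157). These 3 members going lower compare with 84.7% of all analytes. On the reference-spot scale 57.7% of analytes were lower and 13.5% higher, IL-27 p28 was lower with -1.75 (adjusted p = 0.007), IL-6 passed as higher with 1.97 (adjusted p = 0.0154), and IL-11 (-0.85) and LIF (-0.25) did not pass. Scaling to the median analyte turned the sign of all 3 lower members, to 0.16 for IL-27 p28, 1.05 for IL-11 and 1.66 for LIF, which passed as higher (adjusted p = 0.016). Under quantile normalization IL-11 (0.16) and LIF (0.65) turned and IL-27 p28 did not pass at -0.57 (adjusted p = 0.473). IL-27 p28 was undetected in 1 of the NP 2 h samples, so the size of its change rests partly on an undetected reading. Between 2 and 16 h only LIF passed on the normalized intensity, with 1.33 ± 0.50 (adjusted p = 0.0288), where 51.4% of analytes were higher. That change was 1.30 on the reference-spot scale (adjusted p = 0.0338), with 50.5% of analytes higher, and -1.09 under median scaling. LIF was undetected in both AP 16 h samples, so neither the size nor the call of this change rests on a measured AP 16 h level. In the 8 fits that each left out 1 sample, the first of these changes passed every time for IL-27 p28, and IL-11 did not pass in 2 (-1.44 without the brighter AP 2 h sample and -1.15 without the dimmer NP 2 h sample). LIF did not pass in 5, with -1.27 to -0.70, and its later change did not pass in 6, with 0.83 to 1.39.

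Against AP 0 h, IL-6 was lower in every later group on the normalized intensity, and these comparisons share their control samples. The log2 difference was -1.62 in NP serum at 0.5 h (adjusted p = 0.00529), -1.09 at 2 h (adjusted p = 0.0349) and -1.05 at 16 h (adjusted p = 0.0468). In AP serum it was -2.16 at 0.5 h (adjusted p = 0.000558) and -2.63 at 2 h (adjusted p = 8.92e-05). IL-6 was undetected in AP serum at 16 h. Its AP 0 h intensity was on average 1.41-fold the lowest detected analyte of the AP 16 h membranes. IL-6 was the sole member to pass at 0.5 h, under NP, where 55.0% of analytes were lower, and under AP, where 62.2% were lower. LIF was also lower at 2 h under AP (-0.86, adjusted p = 0.0374), which makes 2 members where 57.7% of analytes were lower. That LIF difference did not pass in 3 of the 4 fits without 1 sample. At 16 h under AP, again with 2 members and 71.2% of analytes lower, LIF was undetected. Its AP 0 h intensity was on average 2.75-fold the lowest detected analyte of the AP 16 h membranes. Both folds are on the normalized intensity only. Relative to the reference spots AP 0 h averaged 0.213% for IL-6 and 0.424% for LIF, and the undetected AP 16 h readings averaged 0.467% and 0.597%.

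NP serum at 2 h was lower than AP 0 h for all 4 cytokines, where 91.0% of analytes were lower. Beside IL-6, the differences were -1.57 for IL-11, -1.38 for LIF and -2.19 for IL-27 p28. The IL-27 p28 difference includes 1 undetected NP reading. NP serum at 16 h was lower for 3 of them, with -1.52 for IL-11 and -1.35 for LIF, where 76.6% of analytes were lower. Of the IL-11 readings at NP 16 h, 1 was undetected. IL-11 was the member with the largest positive value against AP 0 h, 1.00 in NP serum at 0.5 h, which did not pass (adjusted p = 0.0611). Without 1 sample, the IL-6 difference in NP serum did not pass in 1 of 4 fits at 0.5 h, in 3 of 4 at 2 h (down to -0.66 without the dimmer NP sample) and in 4 of 4 at 16 h. IL-11 did not pass in 2 of 4 fits at 2 h and in 2 of 4 at 16 h.

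The direction of the comparisons with AP 0 h depended on the scale, because the reference spots of the AP 0 h membranes were 3.78 to 9.18 times as bright as those of the later groups. Relative to the reference spots, IL-11, LIF and IL-27 p28 averaged 1.39%, 2.03% and 0.867% in NP serum at 0.5 h and 1.27%, 1.69% and 0.616% in AP serum at 0.5 h, against 0.194%, 0.424% and 0.178% at AP 0 h. All these differences passed, between 1.82 and 2.91 on the log2 scale, as did those of 84.7% of analytes under NP and 87.4% under AP. IL-6 passed as higher in NP serum at 2 h (1.71, adjusted p = 0.00404) and at 16 h (2.13, adjusted p = 0.000504). Of all analytes 62.2% and 82.0% were higher at those times. In AP serum IL-6 passed at no time on this scale, with 0.18 at 0.5 h, -0.37 at 2 h and 0.96 at 16 h, while IL-11 and IL-27 p28 were higher at 2 and 16 h and LIF at 2 h (1.41, adjusted p = 0.00141), where 86.5% of analytes were higher at either time. At AP 16 h IL-11 was detected in only 1 of 2 samples, at 1.05 times its control, and IL-6 in neither. A brighter membrane and a different serum content at AP 0 h cannot be told apart here.

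**Figure D4:**
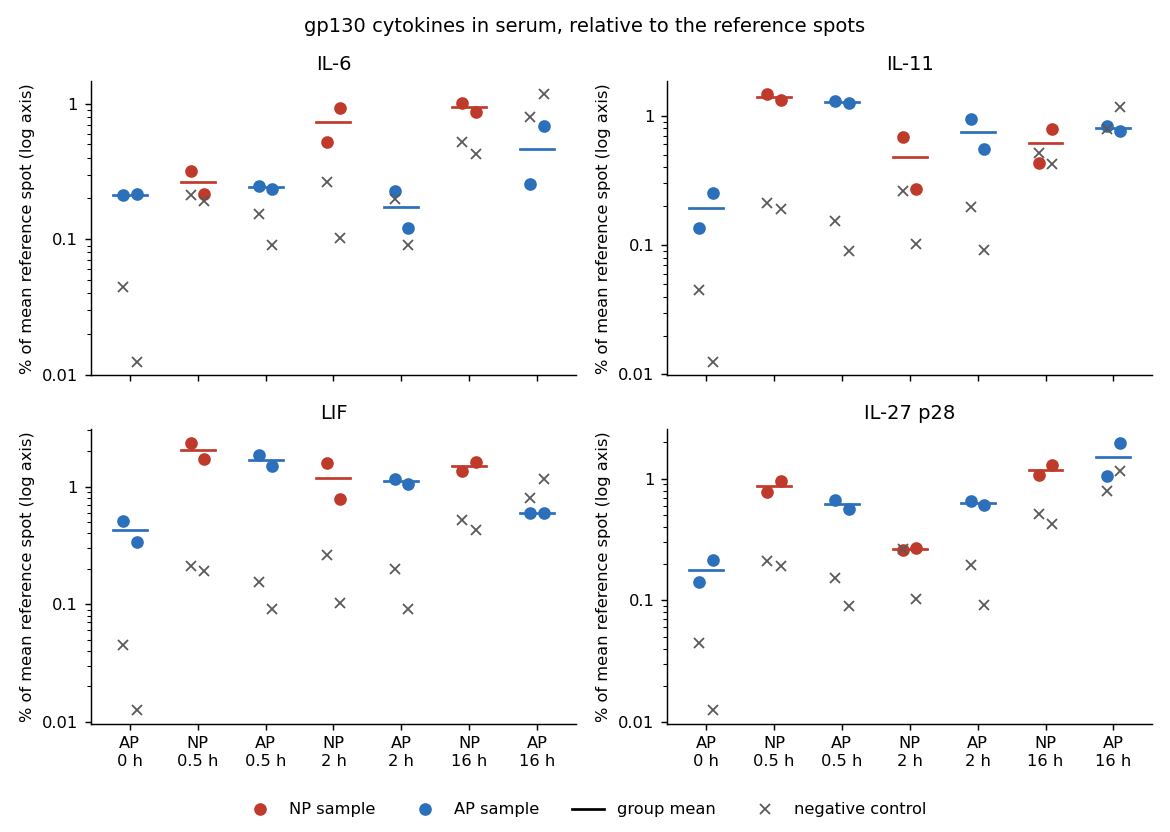
The same samples with raw intensity as a percentage of the mean reference spot of the membrane (log axis), with points, bars and crosses for samples, group means and negative controls. AP 0 h is among the lowest groups for IL-11 (0.194%), LIF (0.424%) and IL-27 p28 (0.178%), and IL-6 is highest in NP serum at 16 h (0.937%) and 2 h (0.726%).

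Ordered by the mean log2 normalized intensity, IL-6 ran from AP 0 h down through NP 16 h, NP 2 h, NP 0.5 h, AP 16 h and AP 0.5 h to AP 2 h. Only the first step, NP 16 h under AP 0 h, passed the test between neighbours. For IL-11 the order was NP 0.5 h, AP 0.5 h, AP 0 h, AP 2 h, AP 16 h, NP 16 h and NP 2 h, and for LIF it was NP 0.5 h, AP 0 h, AP 0.5 h, AP 2 h, NP 16 h, NP 2 h and AP 16 h, and 0 of the 6 steps of either order passed. For IL-27 p28 the order was NP 0.5 h, AP 16 h, AP 0 h, AP 2 h, NP 16 h, AP 0.5 h and NP 2 h, where the last step passed (adjusted p = 0.00051). The ends of the orders lay 2.63 log2 units apart for IL-6, 2.57 for IL-11 and 2.60 for IL-27 p28. The low end for LIF, and AP 16 h for IL-6, are undetected readings, so their place in the order is not measured. IL-27 p28 at NP 2 h, and IL-11 at NP 16 h and AP 16 h, each include 1 undetected sample.

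On the reference-spot scale both later NP groups led the order of IL-6, followed by AP 16 h, and AP 2 h came last. NP 0.5 h led for IL-11 and LIF, and AP 16 h led for IL-27 p28, while AP 0 h was last for these 3. The step that passed with every reading detected was NP 2 h over AP 0 h for IL-11 (adjusted p = 0.027). AP 0.5 h over NP 2 h passed for IL-27 p28 (adjusted p = 0.00693), but 1 of the NP 2 h samples was just under its control. The step of LIF from AP 2 h to AP 16 h also passed, but LIF was undetected in both AP 16 h samples.

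Over the 7 group means relative to the reference spots, Pearson's r was 0.77 between IL-11 and LIF, 0.72 between IL-11 and IL-27 p28 and 0.41 between LIF and IL-27 p28. IL-6 had -0.10 with IL-11, 0.15 with LIF and 0.24 with IL-27 p28. With each sample scaled to its median analyte, those of IL-6 were 0.22 with IL-11, 0.60 with LIF and 0.49 with IL-27 p28, and the others were 0.58 between IL-11 and LIF, 0.66 between IL-11 and IL-27 p28 and 0.24 between LIF and IL-27 p28. All such coefficients share the membranes and their reference spots and are descriptive. The analytes most like IL-6 were VEGF (0.72), the kidney injury marker TIM-1 (0.72) and serum amyloid P (0.70). IL-11 was most like IL-15 (0.96), IL-10 (0.92) and IL-33 (0.92), and LIF most like the eosinophil chemokine CCL11 (0.92), CXCL16 (0.81) and FGF acidic (0.81). Under median scaling, CXCL16 had 0.38 and FGF acidic -0.32 with LIF.

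IL-27 p28 was most like IL-28A/B (0.99), IL-23 (0.98) and IL-5 (0.98). IL-23 and IL-28A/B are also the spots on either side of p28, at columns 15 and 19 of row G where p28 is at column 17. The median r of p28 with all 110 other analytes was 0.67. At 2 h IL-28A/B read 79.9 and 90 under NP, against 577 and 392 under AP, and IL-23 read 49.8 and 74 under NP, against 127 and 145 under AP. The lower NP reading of IL-23 was under the control of its membrane, 61.9 on this scale. IL-10, beside IL-11, also passed as lower at 2 h (-1.11, adjusted p = 0.00792). IL-6 went against its neighbours at 2 h, since IL-5 (-1.06, adjusted p = 0.114) and IL-7 (-0.72, adjusted p = 0.103) had negative differences that did not pass. Whether position on the membrane contributed to the values was not tested beyond a scaling by a plane through the 3 reference positions. The spots of IL-6 and IL-27 p28 lie outside the triangle of those positions, so the plane is extrapolated to them. Under it IL-6 at 2 h was 1.24 (adjusted p = 0.0206) and IL-27 p28 -2.06.

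**Figure D5:**
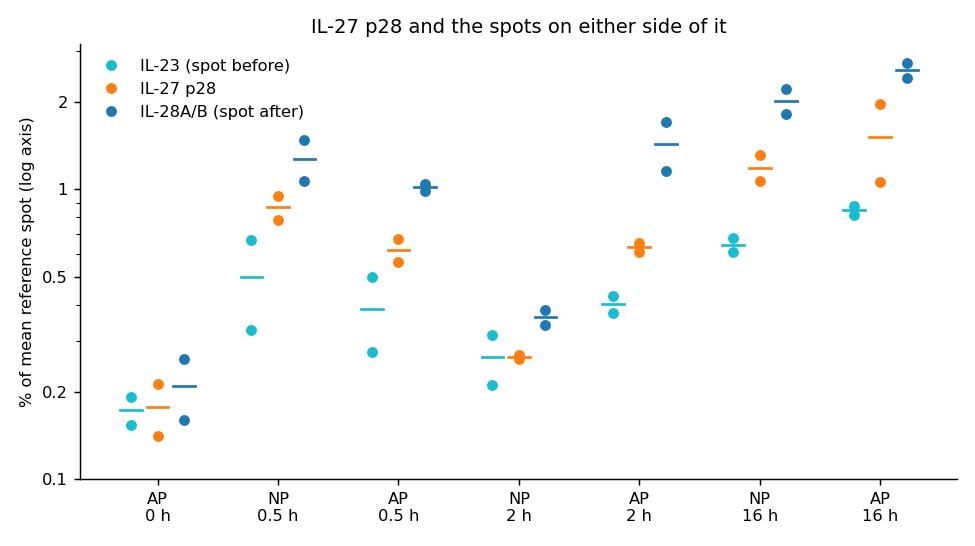
Raw intensity as a percentage of the mean reference spot (log axis) for IL-27 p28 and for IL-23 and IL-28A/B, the spots on either side of it. Points are samples and bars are group means, and all 3 analytes are lower in NP serum at 2 h than in AP serum at 2 h, with 0.264% against 0.631% for IL-27 p28.

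IL-27 p28 belongs with IL-12 and IL-23 to a family of heterodimeric cytokines made by myeloid cells. Of the 3 measured (IL-12 p40, the subunit common to IL-12 and IL-23, IL-23 itself and p28), all 3 were lower under NP at 2 h, with a median of -1.78 against -1.23 over all analytes, of which 86.5% were lower. For IL-23 and p28 only 1 of the NP 2 h samples was above its control. On the reference-spot scale 2 of the 3 were lower, where 63.1% of analytes were, and IL-23 did not pass at -0.63 (adjusted p = 0.168). IL-12 p40 read 137 and 156 in NP serum and 1093 and 1152 in AP serum, a difference of -2.94 (adjusted p = 6.8e-08). At 0.5 h p28 was the 1 member of the family that was higher, beside 44.1% of analytes, and at 16 h none of the 3 passed.

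IL-1 alpha, IL-1 beta, TNF-alpha and IL-17A, which start IL-6 production in many cells, and the antagonist IL-1ra were all lower under NP at 2 h, 5 of 5 with a median of -1.61, where 86.5% of all analytes were lower. IL-1 beta read 19.8 and 33 under NP and 111 and 73 under AP (-1.82, adjusted p = 0.00068), and TNF-alpha read 63.6 and 29 under NP and 155 and 110 under AP (-1.61, adjusted p = 0.00123). On this scale the controls of the NP 2 h membranes were 61.9 and 24. The lower IL-1 beta reading was therefore undetected and both NP readings of TNF-alpha lay just above the control. On the reference-spot scale 3 of the 5 were lower, IL-1 beta, TNF-alpha and IL-1ra, where 63.1% of analytes were. At 0.5 h IL-17A alone of the 5 was higher under NP (1.18, adjusted p = 0.026), beside 44.1% of analytes, and at 16 h IL-1 beta, IL-17A and IL-1ra were lower, beside 52.3%. Those 16 h readings were at the level of the control, since neither NP sample had detectable IL-17A and neither AP sample had detectable IL-1 beta or IL-1ra. On the reference-spot scale 0 of the 5 were higher and 1 lower at 0.5 h, beside 14 and 24 of 111 analytes. At 16 h 1 of the 5 was lower on that scale, beside 19 of 111.

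Proteins that gp130 signalling raises in liver and other tissues gave mixed readings. At 2 h serum amyloid P, a pentraxin that is the major acute phase reactant of the mouse, read 2855 and 3007 under NP and 2335 and 2408 under AP, a difference of 0.31 (adjusted p = 0.0398). C-reactive protein (-1.08), the iron-binding lipocalin-2 (-1.38) and the endotoxin co-receptor CD14 (-3.79) were lower, and the plasminogen activator inhibitor serpin E1 differed by -0.24 without passing. At that time 86.5% of all analytes were lower, with a median of -1.23, and 3.6% were higher. At 0.5 h C-reactive protein was higher (0.21) and serpin E1 lower (-1.60) under NP, and at 16 h C-reactive protein (-0.78) and serum amyloid P (-0.54) were lower. Among all analytes 44.1% were higher and 6 of 111 lower at 0.5 h, and 52.3% were lower at 16 h. By the reference-spot reading, C-reactive protein at 0.5 h was lower (-0.23) and serum amyloid P at 2 h was higher (0.83). On that reading 3 of these 5 proteins were lower at 0.5 h, beside 24 of 111 analytes. At 2 h 1 was higher and 3 lower, beside 9.91% and 63.1% of analytes. By 16 h 2 were higher and 1 lower, beside 23 and 19 of 111 analytes.

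Fetuin A and RBP4, liver proteins that decline in the acute phase, were both higher under NP at 0.5 h, with 0.46 and 0.66, and both lower at 2 h, with -0.72 and -1.30. They were lower at 16 h as well. Of all analytes 44.1% were higher at 0.5 h, 86.5% lower at 2 h and 52.3% lower at 16 h. By the reference-spot reading the count was 0 of 2 at 0.5 h, where 12.6% were higher, and 1 of 2 at 2 h, where 63.1% were lower. At 16 h 1 of 2 was lower on that reading, beside 19 of 111 analytes.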

How the data were processed

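Serum of 14 samples in 7 groups was read on a mouse cytokine membrane array. Per the labels and methods, the authors quantified spots with ImageJ, and the deposited files hold a raw intensity, a normalized intensity and a fold over AP 0 h. The fold columns are the authors' own comparisons and were not used. The authors' normalized intensity is the raw value times a factor, which was recomputed as the smaller of 1 and the other sample's mean reference spot over the sample's own (largest difference 4.57e-06). The kit lists duplicate spots per analyte, and whether a background was subtracted is not given in the sources used here. All 4 members matched a RefSeq symbol.

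Comparisons were fitted on log2 of the normalized intensity of all 111 analytes and 14 samples with limma 3.58.1 in R 4.3.3 (lmFit, eBayes with trend) and no replicate block, and p-values were adjusted by Benjamini-Hochberg over the 111 analytes with a threshold of 0.05. The test was checked on simulated data. The same fit was run on raw intensity over the mean reference spot, on median-scaled and quantile-normalized values, after subtracting the negative control (with a floor of 10, which 167 values met), with an offset of 1% of the reference mean, without the analytes under the 0.25 quantile of mean brightness, without the trend, with a replicate block, with only the groups compared, without each sample, with the methods' t-test, and with a plane through the 3 reference positions. The named analytes are the 4 members, the 3 analytes most correlated with each over the 7 group means, and short lists of IL-12 family cytokines, IL-6 inducers, acute phase proteins and array neighbours. CCL20 and GDF-15 fall outside that rule and were named after their values were seen. The members and lists were chosen with earlier results of these data known. Python 3.11.15 with pandas 2.3.3, numpy 2.4.6 and matplotlib 3.10.9 made the tables and figures. Arrays give no counting depth, and 2 samples per group limit the precision.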

Additional observations from a re-analysis of the deposited data

Results flagged for a closer look

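Of the 4 cytokines, 3 differed between NP and AP in how they changed over time, by the test of that difference itself on the normalized intensity. Between 0.5 and 2 h the change under NP minus that under AP was -2.71 for IL-27 p28, -1.82 for IL-11 and -1.21 for LIF on the log2 scale, and between 2 and 16 h it was 1.33 for LIF. Over all analytes 84.7% had a lower change in the first interval and 51.4% a higher one in the second. Relative to the reference spots IL-27 p28 (-1.75) and the later change of LIF (1.30) passed, as did IL-6 in the first interval (1.97, adjusted p = 0.0154), and the earlier changes of IL-11 (-0.85) and LIF (-0.25) did not. Scaling to the median analyte turned the signs found on the normalized intensity, with 0.16 for IL-27 p28, 1.05 for IL-11 and 1.66 for LIF in the first interval and -1.09 for LIF in the second. Under quantile normalization IL-27 p28 did not pass (-0.57, adjusted p = 0.473), and IL-11 (0.16) and LIF (0.65) turned. IL-27 p28 was undetected in 1 of the NP 2 h samples. In the 8 fits without 1 sample, IL-11 did not pass in 2, LIF not in 5 in the first interval (-1.27 to -0.70) and not in 6 in the second (0.83 to 1.39). LIF was undetected in both AP 16 h samples.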

How the results depend on the processing

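Changes of setting moved calls more than directions for NP against AP at 2 h and changed both for the comparisons with AP 0 h. Of the members' values under alternatives, 453 had the same direction and side of the threshold, 74 no longer passed, 60 newly passed and 95 had the opposite sign, and the cause was not tested. Counted among the 453 is the list of analytes most like IL-27 p28, which has neither a direction nor a threshold. The deviations of same-numbered samples had an r of 0.35, 0.24 and -0.05 at 0.5, 2 and 16 h. Over all 21 pairs of groups r ranged from -0.18 to 0.50. An r above 0.1 was thus met at 0.5 and 2 h but not at 16 h, and the numbers were taken as names only. Whether they mark an experiment was not tested. With the replicate number as a block, LIF (adjusted p = 0.0356) and IL-27 p28 (adjusted p = 0.0485) passed for NP against AP at 16 h, and IL-6 no longer passed for NP 16 h against AP 0 h (adjusted p = 0.0548), while the block changed no other member's call. Under median scaling, the 3 analytes most like IL-6, IL-11 and LIF shared 1, 0 and 1 with those named. Groups of 2, readings near the negative control and reference spots that differ between groups limit every value. 

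The counts of members below pool both directions and are descriptive, since the calls over all analytes moved with the setting too. For AP 2 h against AP 0 h, 64 of 111 analytes were lower and 18 higher on the normalized intensity. Under median scaling 79 were lower and 6 higher, and on the reference-spot scale 3 were lower and 96 higher. On the reference-spot scale, the number of members that passed was 0 for NP against AP at 0.5 h, 1 for NP against AP at 16 h and 3 for AP 0.5 h against AP 0 h and NP 0.5 h against AP 0 h. The steps passed in the order of levels were 0 for IL-6, 1 for IL-11 and 1 for LIF. The log2 difference took the opposite sign for LIF (0.0077) in NP against AP at 2 h, IL-6 (0.18), LIF (2.01) and IL-27 p28 (1.82) in AP 0.5 h against AP 0 h and IL-11 (1.96), LIF (1.41) and IL-27 p28 (1.86) in AP 2 h against AP 0 h. It also turned for IL-6 (0.96), IL-11 (2.11) and LIF (0.52) in AP 16 h against AP 0 h, IL-6 (0.29) in NP 0.5 h against AP 0 h and IL-6 (1.71), IL-11 (1.23), LIF (1.42) and IL-27 p28 (0.60) in NP 2 h against AP 0 h. Further signs turned for IL-6 (2.13), IL-11 (1.66), LIF (1.84) and IL-27 p28 (2.76) in NP 16 h against AP 0 h. With each sample scaled to its median analyte, the number of members that passed was 0 for NP against AP at 0.5 h and NP 16 h against AP 0 h, 1 for AP 16 h against AP 0 h and NP 2 h against AP 0 h, 2 for NP against AP at 16 h, 3 for the change from 2 h to 16 h and 4 for AP 2 h against AP 0 h. The log2 difference took the opposite sign for IL-6 (-0.45), IL-11 (-0.44), LIF (-0.31) and IL-27 p28 (-0.067) in NP against AP at 0.5 h, IL-11 (0.61), LIF (1.36) and IL-27 p28 (0.092) in NP against AP at 2 h and IL-11 (0.86) in AP 16 h against AP 0 h. The sign turned too for LIF (-0.34) and IL-27 p28 (-0.29) in NP 0.5 h against AP 0 h, IL-27 p28 (0.47) in NP 16 h against AP 0 h and IL-11 (1.05), LIF (1.66) and IL-27 p28 (0.16) in the change from 0.5 h to 2 h. It also turned for IL-11 (-2.10), LIF (-1.09) and IL-27 p28 (-1.42) in the change from 2 h to 16 h. After quantile normalization, the number of members that passed was 0 for NP against AP at 0.5 h, NP 2 h against AP 0 h and the change from 2 h to 16 h, 1 for NP 16 h against AP 0 h and the change from 0.5 h to 2 h and 2 for NP against AP at 16 h. The log2 difference took the opposite sign for IL-6 (-0.074) in NP against AP at 0.5 h, IL-11 (0.26) and LIF (0.94) in NP against AP at 2 h and IL-27 p28 (0.15) in AP 0.5 h against AP 0 h. Further signs turned for IL-11 (0.11) and IL-27 p28 (0.31) in AP 2 h against AP 0 h, IL-11 (0.42) in AP 16 h against AP 0 h and LIF (-0.11) in NP 0.5 h against AP 0 h. The sign turned too for IL-6 (0.81), IL-11 (0.37) and IL-27 p28 (0.0088) in NP 2 h against AP 0 h, IL-6 (0.41) and IL-27 p28 (1.19) in NP 16 h against AP 0 h and IL-11 (0.16) and LIF (0.65) in the change from 0.5 h to 2 h. It also turned for IL-11 (-1.06) and IL-27 p28 (-0.61) in the change from 2 h to 16 h. With a plane through the reference spots, chosen after seeing the data, the number of members that passed was 0 for NP against AP at 0.5 h, 1 for NP against AP at 16 h, 2 for NP 2 h against AP 0 h and the change from 2 h to 16 h and 3 for AP 0.5 h against AP 0 h and NP 0.5 h against AP 0 h. The log2 difference took the opposite sign for IL-6 (-0.70), IL-11 (-0.039), LIF (-0.018) and IL-27 p28 (-0.26) in NP against AP at 0.5 h, IL-6 (1.00), LIF (2.17) and IL-27 p28 (2.54) in AP 0.5 h against AP 0 h and IL-6 (0.34), IL-11 (1.84), LIF (1.31) and IL-27 p28 (2.36) in AP 2 h against AP 0 h. Further signs turned for IL-6 (0.97), IL-11 (1.92) and LIF (0.29) in AP 16 h against AP 0 h, IL-6 (0.30) in NP 0.5 h against AP 0 h and IL-6 (1.58), IL-11 (0.80), LIF (0.88) and IL-27 p28 (0.30) in NP 2 h against AP 0 h. The sign turned too for IL-6 (2.19), IL-11 (1.38), LIF (1.49) and IL-27 p28 (2.68) in NP 16 h against AP 0 h. After subtraction of the negative control, the number of members that passed was 0 for NP against AP at 0.5 h, 1 for AP 2 h against AP 0 h, 2 for NP against AP at 16 h and 3 for the change from 2 h to 16 h. The log2 difference took the opposite sign for IL-6 (-0.80) in NP against AP at 0.5 h, IL-11 (1.37) and IL-27 p28 (0.095) in NP against AP at 16 h and IL-27 p28 (-0.96) in AP 16 h against AP 0 h. With the offset of 1% of the reference mean, the number of members that passed was 2 for NP against AP at 16 h and 4 for NP against AP at 0.5 h, AP 0.5 h against AP 0 h, AP 2 h against AP 0 h, AP 16 h against AP 0 h and NP 0.5 h against AP 0 h. The log2 difference took the opposite sign for IL-6 (-0.081) in NP against AP at 16 h, IL-11 (-1.41) in AP 0.5 h against AP 0 h and IL-27 p28 (-1.61) in AP 16 h against AP 0 h. It also turned for IL-11 (-0.91), LIF (-0.83) and IL-27 p28 (-1.24) in NP 0.5 h against AP 0 h and IL-6 (-0.44) in the change from 0.5 h to 2 h. With only the groups compared in the fit, the number of members that passed was 0 for the change from 2 h to 16 h, 2 for NP against AP at 0.5 h and NP 0.5 h against AP 0 h and 3 for NP against AP at 16 h. By the methods' t-test without adjustment, the number of members that passed was 1 for NP against AP at 2 h, NP against AP at 16 h, AP 2 h against AP 0 h, AP 16 h against AP 0 h, NP 2 h against AP 0 h and NP 16 h against AP 0 h and 2 for NP against AP at 0.5 h. By the methods' t-test with Benjamini-Hochberg adjustment, the number of members that passed was 0 for NP against AP at 0.5 h, AP 2 h against AP 0 h and NP 0.5 h against AP 0 h and 1 for NP against AP at 2 h, NP against AP at 16 h, AP 16 h against AP 0 h, NP 2 h against AP 0 h and NP 16 h against AP 0 h. Without the dimmest analytes, a filter that drops IL-6, the number of members that passed was 0 for AP 0.5 h against AP 0 h and NP 0.5 h against AP 0 h and 1 for NP against AP at 16 h, AP 2 h against AP 0 h and AP 16 h against AP 0 h. Without the trend, the number of members that passed was 1 for NP against AP at 16 h. With the replicate block, the number of members that passed was 2 for NP against AP at 16 h. On raw intensity, the number of members that passed was 0 for the change from 2 h to 16 h and 1 for AP 2 h against AP 0 h. In the fits without 1 sample, the members that passed numbered 0 for NP against AP at 0.5 h, 1 to 4 for NP against AP at 2 h, 0 to 1 for NP against AP at 16 h and the change from 2 h to 16 h, 1 to 2 for AP 2 h against AP 0 h, AP 16 h against AP 0 h and NP 16 h against AP 0 h, 0 to 2 for NP 0.5 h against AP 0 h, 2 to 3 for NP 2 h against AP 0 h and 1 to 3 for the change from 0.5 h to 2 h. Among single members the sign was not constant for IL-6 from -0.035 to 1.38 in NP against AP at 16 h, IL-11 from -0.0094 to 0.90 in AP 0.5 h against AP 0 h, IL-11 from -0.76 to 0.15 in AP 2 h against AP 0 h, IL-27 p28 from -0.078 to 0.82 in AP 16 h against AP 0 h and IL-11 from -0.34 to 0.99 in the change from 2 h to 16 h.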
